A study of Drosophila melanogaster with 12 samples.

Results

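The comparison described here is of flies carrying the S284Y mutation of dU2AF50 kept at 30C with flies of the same genotype kept at 25C. Its members are the 3 arrays titled S284Y at 30C and the 3 titled S284Y at 25C, 6 of the 12 arrays of the study, and they were chosen by title alone. The study measured transcript levels in whole Drosophila melanogaster with 1-colour oligonucleotide arrays, in mutant and wild-type (WT) flies at both temperatures, with 3 arrays in each of 4 groups. Per the labels, each RNA came from 5 male and 5 female flies. The labels call 25C permissive and 30C restrictive for the mutant. The WT groups carry the wild-type form of dU2AF50, and although titled 30C all 3 arrays of the warm WT group are described as 25C, array 1 even as permissive, so the WT temperatures are in doubt. Nothing in the labels gives the age of the flies or says that the 3 arrays of a group came from separate pools. The spread behind each p-value is that between these RNA samples alone, and may be technical.

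dU2AF50, encoded by U2af50, is the large subunit of the splicing factor U2AF. In flies as in other animals the large subunit binds the polypyrimidine tract near the end of an intron, the small subunit U2AF38 contacts the AG at the 3' splice site, and together they help to bring the U2 small nuclear ribonucleoprotein to the branch point. A temperature-sensitive form of such a factor is used to compare transcripts when the protein works and when it is impaired. The arrays report 1 signal per probe set and do not show splicing.

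The level of U2af50 cannot check a change of 1 residue, and it did not separate the temperatures. Signals of U2af50 on arrays 1, 2 and 3, the order kept throughout, were 4743.1, 3722.6 and 6197.5 at 25C and 4444.7, 5488.2 and 5548.7 at 30C. The groups overlapped, with a log2 fold change of 0.10 ± 0.188 (SE, adjusted p = 0.768). U2af38, the small subunit, gave -0.16 ± 0.211 (SE, adjusted p = 0.665), and its groups overlapped too. Every log2 fold change is the mean of log2(signal + 16) at 30C minus that at 25C, and rises, falls and fold changes are given on that log2 scale. They were tested with limma, with the spread pooled over all 12 arrays and Benjamini-Hochberg adjustment over 13966 probe sets.

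The 25C arrays differed from each other far more than the 30C arrays did, and this touches every result below. S284Y 25C arrays 2 and 3 correlated with any other array at 0.808 to 0.887 over all probe sets, while every other pair of arrays correlated at 0.91 to 0.959. Array 2 was high for yolk proteins, with a summed signal of 635800 over the 3 yolk genes against 116860 and 144560 on arrays 1 and 3 and 111220 to 153940 at 30C. Array 3 was high for male accessory gland genes, with a summed signal of 259240 over 17 genes against 105410 and 100400 on arrays 1 and 2 and 62717 to 106340 at 30C. None of these 20 genes passed the test between temperatures, where 4.47% of all genes did. In so few genes that is no departure from the share. Their spread at 25C includes the high array, which makes a call harder. All 25 measured markers of ovary, testis, accessory gland, eye, muscle, gut and fat body had a signal on every array, the lowest at 192.5. Whether the arrays hold equal parts of males and females, or of any tissue, was not tested. In whole flies, fewer cells of a type and less RNA per cell cannot be told apart.

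At 30C, 559 of 13966 probe sets (4.0%) passed an adjusted p of 0.05, 254 higher (1.82%) and 305 lower (2.18%), and 384 of the 559 differed by over 2-fold. Of the 559, 558 had all 3 values of one temperature above those of the other, as did 26.2% of all probe sets (12.9% higher and 13.4% lower). Lack of overlap thus comes with nearly every call and adds no support to it, here and below. Against single 25C arrays the numbers were 183 (1.31%) with array 1 as the only control, 3228 (23.1%) with array 2 and 4759 (34.1%) with array 3. With array 1 alone 0.501% were higher and 0.809% lower, with array 2 12.7% and 10.4%, and with array 3 20.6% and 13.5%. A change that passed against each array in turn with 1 sign, 99 probe sets (0.709%), is said below to hold. Of these, 29 were higher (0.208%) and 70 lower (0.501%) at 30C. By size in place of a test, 293 probe sets (2.10%) had no overlap and lay at least 1 log2 unit from each 25C array, 71 higher (0.508%) and 222 lower (1.59%), and 45 of them were among the 99. The 3 single-array tests share the 30C arrays, so they are not independent of each other. They also assume that 1 array varies as the other groups do. The low correlations of 25C arrays 2 and 3 go against that, so their p-values are likely too small. Holding is therefore not in every case a stricter standard than the joint test. Of the 99, 95 were among the 559 (17.0% of those), and 4 passed the single tests and not the joint one. With each array centred on its median signal, 560 probe sets passed, 321 higher and 239 lower.

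**Figure D1:**
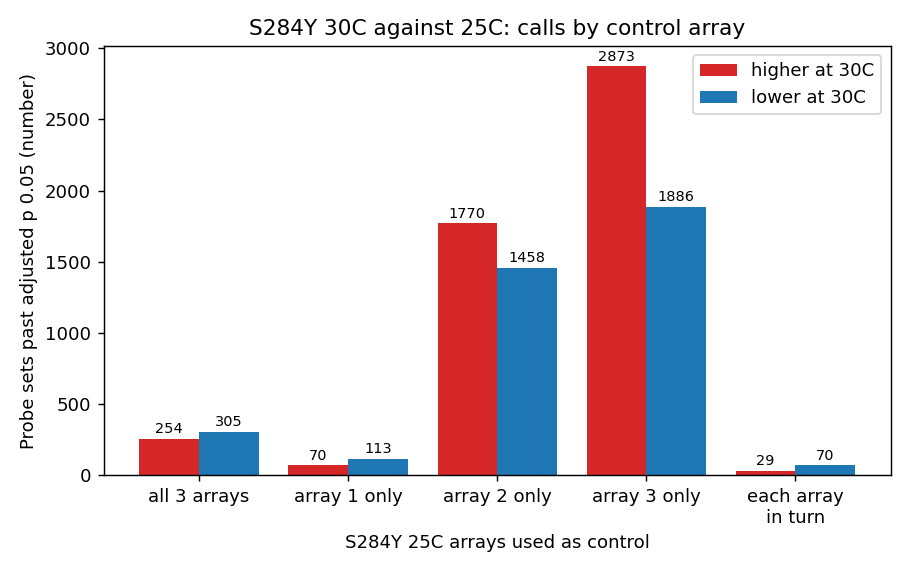
Number of probe sets past an adjusted p of 0.05 (vertical axis) in S284Y flies at 30C, higher in red and lower in blue, by the 25C arrays used as control (horizontal axis). With array 1 alone 70 were higher and 113 lower, with array 3 alone 2873 and 1886, and 29 and 70 held against each array in turn.

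The probe sets that held differed most from array 3. The 29 higher had a median difference of 0.99, 1.39 and 2.01 log2 units from arrays 1, 2 and 3, and their median signal went from 721 to 1865. The 70 lower had medians of -1.15, -1.09 and -1.70, and their median signal went from 3681 to 1444. Over all probe sets, the median signal was 503 at 25C and 483 at 30C. At the edge of the rule, Obp57c, ATPsyngamma and Cyp9f2 were inside with a largest adjusted p of 0.0488, 0.0486 and 0.0486, and Cyp6a8, Obp18a and CG5726 were outside with 0.0501, 0.0502 and 0.0502.

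These calls rest on the spread borrowed from all groups. A fit of the 6 S284Y arrays alone called no probe set in limma, with a smallest adjusted p of 0.193 and an unadjusted p under 0.05 for 1978, and 3 arrays against 3 cannot give an exact permutation p under 0.10. Leaving out S284Y 30C array 3 left 17 calls, leaving out 30C array 2 left 31 and 30C array 1 134, while 2398 passed without 25C array 1 and 1026 without 25C array 3. Leaving out any single WT array gave 135 to 219. All 17 that passed without 30C array 3 were among the 559. Array 1 was the 25C array closest to the 30C mean for 66.0% of the 559 and for 52.6% of all probe sets. Of 80 genes named by a fixed rule that passed, 9 passed in all 12 fits that left out 1 array: CG7214, Jon25Bii, CG13315, Act88F, CG9682, CG14500, Ag5r2, CG1304 and wts. The total that held, 99 with all arrays, was 60 without 30C array 3 (53 of them among the 99), 62 without 30C array 2 (52) and 154 without 30C array 1 (90). Leaving out WT 25C array 1 gave 65 (62), WT 30C array 1 gave 62 (60) and WT 30C array 2 gave 56 (54).

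Several genes of flight muscle fell. The gene lists, here and below, were chosen with earlier results of these data known. Of 22 measured muscle genes, 5 fell and none rose, 4 of the 5 held against each 25C array, and the list's median log2 fold change was -0.55 against -0.05 over all 10843 genes, of which 220 (2.03%) rose, 265 (2.44%) fell and 87 (0.802%) held, 0.231% higher and 0.572% lower. Act88F, the actin of the indirect flight muscles, had signals of 6193.1, 4689.8 and 4060.6 at 25C and 1519.3, 997.3 and 791 at 30C. Every 30C array lay below every 25C array by a wide margin. The log2 fold change was -2.19 ± 0.255 (SE, adjusted p = 0.00307), with differences of -2.52, -2.12 and -1.92 from the 3 arrays.

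The other muscle genes that held encode parts of the thick filament. Myosin regulatory light chain Mlc2 gave 34854, 35110 and 45873 at 25C and 17968, 15790 and 15127 at 30C. The groups did not overlap, and the fold change was -1.24 ± 0.184 (SE, adjusted p = 0.00911). Mlc1, the myosin alkali light chain, had signals of 7741.6, 7792.4 and 13586 at 25C and 3572.4, 3664.4 and 2580.3 at 30C and a fold change of -1.53 ± 0.235 (SE, adjusted p = 0.0102). For fln (flightin, a flight-muscle protein that binds the myosin rod) the signals were 4993.2, 3816 and 11938 at 25C and 2035.6, 1790.8 and 1303.6 at 30C. Array 3 at 25C stood highest for fln, and without overlap the fold change was -1.85 ± 0.341 (SE, adjusted p = 0.0207). Argk1, arginine kinase, which buffers ATP in muscle, fell by 0.67 (adjusted p = 0.043) without holding. The summed signal of the 22 genes was 157260, 135300 and 173680 at 25C and 82651 to 94806 at 30C. In WT flies it was 134210 to 152410 at 25C and 85835 to 91604 at 30C. The call of fln and Mlc2 ended without S284Y 30C array 2 or 3, and that of Mlc1 without S284Y 30C array 3 (adjusted p = 0.0532 to 0.101). Act88F kept its call in all 12 such fits.

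Several genes of digestive enzymes fell. Of 35 genes of digestive proteases, amylases and lipases, 9 fell and none rose, against 2.44% and 2.03% of all genes. Of the 9, 6 held, where 0.802% of all genes did. The median was -0.93, with -0.67, -1.05 and -1.32 against arrays 1, 2 and 3. Jon25Bii, a Jonah serine protease of the midgut, had signals of 28178, 28168 and 45245 at 25C and 9681.2, 8947 and 7875.6 at 30C. The 30C arrays lay close together and far below the 25C arrays. The fold change was -1.90 ± 0.204 (SE, adjusted p = 0.00207). Jon99Fi, another Jonah protease, gave 22874, 27157 and 43944 at 25C and 11664, 9595.9 and 7568.4 at 30C, with a fold change of -1.67 ± 0.255 (SE, adjusted p = 0.0102). Jon44E gave 1555, 1324.1 and 2580.7 at 25C and 631.2, 385.8 and 515.9 at 30C, and its fold change was -1.77 ± 0.274 (SE, adjusted p = 0.0102). These Jonah genes were all highest on 25C array 3 and did not overlap between temperatures.

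A pair of trypsins fell as well. lambdaTry had signals of 1907.9, 1594.5 and 2370.8 at 25C and 885.3, 683.2 and 582.6 at 30C and a fold change of -1.43 ± 0.202 (SE, adjusted p = 0.00726). Jon65Ai (-1.52, adjusted p = 0.0254) and thetaTry (-1.10, adjusted p = 0.0157) also held. Ser6, a serine protease, mag, a lipase, and Amy-d, an amylase, fell by 1.54 (adjusted p = 0.0282), 0.95 (0.037) and 1.12 (0.0428) without holding. The digestive marker Jon65Aiii did not pass (-0.84, adjusted p = 0.2). Its signal was 40430, 165840 and 61511 at 25C and 41395, 40489 and 42806 at 30C, with 25C array 2 far above the other 5. The list's summed signal was 386270, 837130 and 561510 at 25C and 298350 to 323290 at 30C. It was 352600 to 414120 and 288870 to 335050 in WT flies. The call of lambdaTry ended without S284Y 30C array 3, and that of Jon99Fi and Jon44E without S284Y 30C array 2 or 3 (adjusted p = 0.0505 to 0.0595).

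Other genes of digestion and the gut lining fell too. Peritrophin-15a, a chitin-binding protein of the peritrophic matrix, had signals of 3111.5, 3302.6 and 4048.5 at 25C and 1388.1, 1640.9 and 1202.6 at 30C. It held, with a narrow spread in both groups and a fold change of -1.30 ± 0.175 (SE, adjusted p = 0.00591). Of 10 maltases, which split disaccharides, 2 fell (Mal-A4 and Mal-A6), against 2.44% of all genes, and neither held. Mal-A4 gave 828.8, 886.6 and 1418.9 at 25C and 198.2, 409.9 and 65.9 at 30C, with a fold change of -2.40 ± 0.472 (SE, adjusted p = 0.0254) and -2.11 against array 1 alone (adjusted p = 0.139). Mal-A6 fell by 1.26 (adjusted p = 0.0293). Of 7 lysozymes, LysS fell by 1.13 (adjusted p = 0.0387) and did not hold. The call of Mal-A4 ended without S284Y 30C array 1 or 3 (adjusted p = 0.0558 to 0.0758).

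A pair of lysosomal alpha-mannosidases, enzymes that trim mannose from glycoproteins, fell strongly. LManIII had signals of 423.5, 396.6 and 265.6 at 25C and 71, 8.3 and 18.5 at 30C. At 30C the signals of LManIII were near the added 16, so the size of its fold change depends on that value: -3.15 ± 0.445 (SE, adjusted p = 0.00726). LManV gave 6977.8, 2629.2 and 3907.8 at 25C and 1605.8, 837.8 and 491.8 at 30C, without overlap, and a fold change of -2.23 ± 0.38 (SE, adjusted p = 0.0161). A second LManV probe set did not pass, at -0.92. The call of LManIII ended without S284Y 30C array 3 (adjusted p = 0.0505).

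Detoxification genes fell in part. Of 34 glutathione transferases, which conjugate glutathione to foreign compounds, 3 fell, all of the E class, and all 3 held. Among all genes, 2.44% fell and 0.802% held. GstE9 had signals of 2576.8, 2466.9 and 3661.6 at 25C and 1301.6, 1224.2 and 960.9 at 30C and a fold change of -1.30 ± 0.188 (SE, adjusted p = 0.00789). GstE12 gave 3904.9, 3677.8 and 4788.9 at 25C and 2524.3, 1976 and 2042.6 at 30C, with -0.91 ± 0.158 (SE, adjusted p = 0.0162). For GstE3 the signals were 2069.6, 1682.3 and 2395.6 at 25C and 1191.9, 932.2 and 1017.8 at 30C and the fold change -0.95 ± 0.175 (SE, adjusted p = 0.0207). As with nearly every call, no value of these 3 genes overlapped between temperatures. The median of the 34 was -0.39, and the other 31 did not pass. The call of GstE9 ended without S284Y 30C array 3, and that of GstE12 and GstE3 without S284Y 30C array 2 or 3 (adjusted p = 0.0505 to 0.0955).

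Of 83 cytochrome P450 genes, monooxygenases that oxidise hormones, lipids and toxins, 11 fell and 1 rose, and 2 of the 11 held. Among all genes, 2.44% fell, 2.03% rose and 0.802% held. Cyp6a13 had signals of 730.9, 845.6 and 712.3 at 25C and 424.7, 257 and 250.9 at 30C and a fold change of -1.29 ± 0.216 (SE, adjusted p = 0.0151). Cyp9f2, which also held, gave -0.86 (adjusted p = 0.04). Cyp6a8 gave 555.1, 889.8 and 420.4 at 25C and 201, 197.3 and 77.2 at 30C and fell by 1.90 (adjusted p = 0.019). It missed the rule against array 1 alone at 0.0501. Cyp9b2 fell by 0.94 (adjusted p = 0.021) and Cyp6a18 by 1.22 (0.0271), and neither held. A second probe set of Cyp9b2 gave 0.31 and did not pass. The gene that rose was Cyp6a19, at 0.60 (adjusted p = 0.049). The call of Cyp6a13 and Cyp6a8 ended without S284Y 30C array 2 or 3, that of Cyp9b2 without any single S284Y 30C array, and that of Cyp6a18 without any single S284Y 30C array or WT 30C array 2 (adjusted p = 0.0503 to 0.0853).

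Several fat body genes fell. Of 30 genes of the fat body and lipid metabolism, 5 fell and 1 rose, against 2.44% and 2.03% of all genes. The list's median was -0.39, and 10 of the 30 had a positive fold change. The fat body markers FASN1 (-0.016, adjusted p = 0.974) and Lsd-1 (-0.84, adjusted p = 0.0685) did not pass. Lsp2, a hexamerin storage protein of the fat body, had signals of 5433.5, 3347.1 and 2679.4 at 25C and 1439.9, 1062.1 and 1142.6 at 30C. It was lower on every 30C array, with a fold change of -1.59 ± 0.247 (SE, adjusted p = 0.0102), and it held. Sodh1, a sorbitol dehydrogenase, gave 3086.8, 2560.2 and 6525.7 at 25C and 1217.3, 985.7 and 1227.5 at 30C and -1.70 ± 0.282 (SE, adjusted p = 0.0148), and held as well. Gnmt, glycine N-methyltransferase, which uses S-adenosylmethionine, gave 1499.5, 1423.6 and 2144.9 at 25C and 685.7, 810.9 and 413.7 at 30C and -1.41 ± 0.257 (SE, adjusted p = 0.0205). Gnmt did not hold against array 1 (adjusted p = 0.0757). Men, malic enzyme, and tobi, an alpha-glucosidase, fell by 0.72 (adjusted p = 0.0452) and 1.31 (0.0421). Hnf4, a nuclear receptor of lipid metabolism, rose, with signals of 2513.1, 1565.9 and 1326.6 at 25C and 3321.6, 2957.6 and 3514.6 at 30C and a fold change of 0.90 ± 0.211 (SE, adjusted p = 0.0396). Array 1 at 25C came close to the 30C values of Hnf4, and the difference from it was 0.37 (adjusted p = 0.266). The call of Lsp2 and Sodh1 ended without S284Y 30C array 2 or 3, that of Gnmt without S284Y 30C array 3, and that of Hnf4 without any single S284Y 30C array, S284Y 25C array 2 or any single WT array (adjusted p = 0.0595 to 0.152).

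Acbp5, an acyl-CoA binding protein, had signals of 9708.8, 9385.3 and 15992 at 25C and 4884.4, 2823.5 and 1868.8 at 30C. The 3 values at 30C were spread, and the highest lay below the lowest at 25C. The fold change was -1.93 ± 0.299 (SE, adjusted p = 0.0102), and it held. Idgf3, a chitinase-like imaginal disc growth factor, held with 4543.1, 3629.5 and 2775.1 at 25C and 1553.8, 1774.9 and 1739.9 at 30C and a fold change of -1.08 ± 0.191 (SE, adjusted p = 0.0176). Aldh7A1, an aldehyde dehydrogenase, held with -1.54 (adjusted p = 0.00758). CAH1, a carbonic anhydrase, held with -0.95 (adjusted p = 0.0132), and Tret1-1, a trehalose transporter, with -0.89 (adjusted p = 0.0274). The call of Acbp5 ended without S284Y 30C array 2 or 3 (adjusted p = 0.0505 to 0.054).

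Several genes of mitochondrial energy production fell. Of 62 genes of oxidative phosphorylation, 14 fell and none rose, against 2.44% and 2.03% of all genes. The median was -0.67, against -0.05 over all genes, and 58 of the 62 had a negative fold change. Genes of a list share the same arrays, so their signs, here and below, are not independent. By array the medians were -0.47, -0.50 and -1.14, so the difference was largest against array 3. ox, a small subunit of the cytochrome bc1 complex, had signals of 25699, 29810 and 44582 at 25C and 15881, 13942 and 11978 at 30C and a fold change of -1.23 ± 0.214 (SE, adjusted p = 0.0167), and held. Its other probe set gave -0.84 and did not pass. ATPsyngamma, the rotor shaft subunit of ATP synthase, gave 16660, 17530 and 18436 at 25C and 11205, 10482 and 9875.1 at 30C and -0.74 ± 0.15 (SE, adjusted p = 0.0271), and held at the edge of the rule. ATPsynO, a stalk subunit, gave 19806, 21324 and 25612 at 25C and 12753, 12452 and 10818 at 30C and -0.88 ± 0.168 (SE, adjusted p = 0.0241). ATPsynB held in the single-array tests and not in the joint one (-0.99, adjusted p = 0.0536). ND-B8, a subunit of complex I, gave -1.31 ± 0.269 (SE, adjusted p = 0.0274) without holding. With quantile normalization ATPsyngamma was -0.38 and ATPsynO -0.49, and both missed the threshold. The call of ox ended without S284Y 30C array 2 or 3, that of ATPsyngamma and ND-B8 without any single S284Y 30C array or WT 30C array 2, and that of ATPsynO without any single S284Y 30C array (adjusted p = 0.0503 to 0.122).

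Mpcp1, which carries phosphate into mitochondria, was no member of that list and held, with signals of 15542, 15163 and 26569 at 25C and 7813.6, 6518.2 and 5412.3 at 30C and a fold change of -1.50 ± 0.227 (SE, adjusted p = 0.00981). Of 19 genes of glycolysis and the citric acid cycle, 4 fell, against 2.44% of all genes, none rose and none held. Idh3b, a subunit of isocitrate dehydrogenase, gave 5711.9, 6542.1 and 6116.2 at 25C and 3807.5, 3944.5 and 3754.3 at 30C and -0.67 ± 0.136 (SE, adjusted p = 0.0269). Gapdh1 fell by 0.95 (adjusted p = 0.044), the hexokinase Hex-C by 1.29 (0.0396) and the succinate dehydrogenase subunit SdhC by 0.89 (0.0403). Of 66 mitochondrial ribosomal proteins, 1 fell (mRpS6, -0.76, adjusted p = 0.0467), and the median was -0.14. The call of Idh3b ended without any single S284Y 30C array or WT 30C array 2, that of Gapdh1 and SdhC without any single S284Y 30C array or any single WT array, and that of Hex-C without S284Y 30C array 2 or 3 or any single WT array (adjusted p = 0.0508 to 0.153).

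Proteins of the cuticle, eggshell and odorant-binding families each had a few genes that fell. Of 72 cuticle genes, 5 fell and none rose, against 2.44% and 2.03% of all genes. Ccp84Ae had signals of 6068, 12001 and 10174 at 25C and 3584, 3356.1 and 2767.7 at 30C and a fold change of -1.49 ± 0.231 (SE, adjusted p = 0.0102). Cpr49Ae gave 1811.8, 952.2 and 1476.8 at 25C and 447.6, 312.2 and 452.8 at 30C and -1.74 ± 0.276 (SE, adjusted p = 0.0118). Both held. Cpr49Ab fell by 1.35 (adjusted p = 0.0176) and Lcp65Aa by 0.88 (0.0361), without holding. Acp65Aa, an adult cuticle protein outside that list, had signals of 615.7, 189.8 and 575 at 25C and 70.9, 70.8 and 51.4 at 30C and a fold change of -2.41 ± 0.456 (SE, adjusted p = 0.0233). It did not hold against array 2, the lowest of the 25C arrays. The call of Ccp84Ae, Cpr49Ae and Cpr49Ab ended without S284Y 30C array 2 or 3, that of Lcp65Aa without any single S284Y 30C array or any single WT array, and that of Acp65Aa without any single S284Y 30C array (adjusted p = 0.0505 to 0.118).

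Of 16 eggshell genes, made by the follicle cells of the ovary, 4 fell and none rose, against 2.44% and 2.03% of all genes. Femcoat had signals of 2101.8, 1849.6 and 2156.5 at 25C and 1226.8, 817.3 and 685.4 at 30C and a fold change of -1.19 ± 0.205 (SE, adjusted p = 0.0162), and it held. Cp19, a chorion protein, gave 46413, 82181 and 64769 at 25C and 32556, 27707 and 19628 at 30C and -1.27 ± 0.253 (SE, adjusted p = 0.0263). Among vitelline membrane proteins, Vm26Ac fell by 1.29 (adjusted p = 0.0172) and Vm32E by 1.24 (0.0271). These 3 did not hold against array 1, where the differences were -0.83, -0.81 and -0.75. The summed signal of the list was 357220, 915110 and 408860 at 25C and 285820 to 307840 at 30C, so array 2 carried the highest level. Cp19 was -0.72 with quantile normalization and missed the threshold. The call of Femcoat ended without S284Y 30C array 2 or 3, that of Cp19 without S284Y 30C array 2 or 3 or WT 30C array 2, that of Vm26Ac without S284Y 30C array 1 or 3, and that of Vm32E without any single S284Y 30C array, S284Y 25C array 2 or WT 30C array 2 (adjusted p = 0.0503 to 0.122).

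Odorant-binding proteins carry small hydrophobic molecules, several of them outside the antennae. Of 36 measured, 4 fell and 1 rose, against 2.44% and 2.03% of all genes. Obp57c had signals of 1082.1, 815.8 and 1698 at 25C and 529.3, 492.7 and 338 at 30C and a fold change of -1.33 ± 0.274 (SE, adjusted p = 0.0274), and it held at the edge of the rule. Obp18a gave 1404.4, 1717.8 and 2741.5 at 25C and 931.7, 782.9 and 854.6 at 30C and -1.12 ± 0.217 (SE, adjusted p = 0.0243), and missed at 0.0502 against array 1. Obp99c fell by 1.16 (adjusted p = 0.0384) and Obp99a by 1.18 (0.044). The gene that rose was Obp99d, with signals of 11.5, 13.6 and 17.7 at 25C and 100.1, 121.4 and 133.1 at 30C. Its 25C values were close to the added 16, so its fold change of 2.15 ± 0.53 (SE, adjusted p = 0.044) says little about the size, and it did not hold. The call of Obp57c ended without any single S284Y 30C array or WT 30C array 2, that of Obp18a without any single S284Y 30C array, that of Obp99c without any single S284Y 30C array, S284Y 25C array 2 or any single WT array, and that of Obp99d without any single S284Y 30C array, S284Y 25C array 2, any single WT 25C array or WT 30C array 1 or 2 (adjusted p = 0.0503 to 0.153).

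Of 27 immune genes, 3 fell and 1 rose, against 2.44% and 2.03% of all genes. nec, a serpin that restrains the Toll pathway, had signals of 3400.7, 3683.2 and 2982.6 at 25C and 1954.6, 1989.6 and 2237.1 at 30C. The groups of nec did not overlap, the fold change was -0.70 ± 0.147 (SE, adjusted p = 0.0293), and it held. PGRP-LB, an amidase that degrades peptidoglycan, gave 1286.8, 1317.1 and 1968.3 at 25C and 714.6, 754.4 and 659.7 at 30C and -1.06 ± 0.211 (SE, adjusted p = 0.026), and missed against array 1 (0.0805). SPE, the protease that activates the Toll ligand, fell by 0.93 (adjusted p = 0.0497). Tl, the Toll receptor, rose, with signals of 4982.1, 2301.3 and 1528.1 at 25C and 5637.6, 6683.7 and 7238.4 at 30C and a fold change of 1.31 ± 0.321 (SE, adjusted p = 0.0433). The difference of Tl from array 1 was 0.38 (adjusted p = 0.363). The call of nec ended without any single S284Y 30C array or any single WT array, that of PGRP-LB without any single S284Y 30C array or WT 30C array 2, that of SPE without any single S284Y 30C array, S284Y 25C array 3 or any single WT array, and that of Tl without any single S284Y 30C array, S284Y 25C array 2 or any single WT array (adjusted p = 0.0503 to 0.157).

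The largest falls included genes known by number only, to which no role is given here. CG7214 had signals of 930, 652.1 and 749.8 at 25C and 56.7, 57.4 and 41.3 at 30C. At 30C it was dim on every array, not far above the added 16, and the fold change was -3.54 ± 0.349 (SE, adjusted p = 0.00132). CG13315, a bright probe set, gave 17923, 17994 and 38539 at 25C and 4287.6, 4639.5 and 2648 at 30C. Its fold change was -2.62 ± 0.296 (SE, adjusted p = 0.00273). CG1304 gave 754.6, 630.8 and 1727.4 at 25C and 191.4, 82.4 and 89.4 at 30C and -2.89 ± 0.396 (SE, adjusted p = 0.00655). None of these overlapped between temperatures, which was a condition for naming them.

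CG9682 had signals of 851.6, 777.4 and 676.2 at 25C and 184, 132.3 and 73.4 at 30C and a fold change of -2.50 ± 0.31 (SE, adjusted p = 0.00386). CG14500 gave 3295.4, 2410.2 and 4716.6 at 25C and 745.4, 746.8 and 763.8 at 30C, with 30C arrays that nearly coincided, and -2.13 ± 0.264 (SE, adjusted p = 0.00386). Ag5r2, a secreted protein of the antigen 5 family, gave 5905, 6546.5 and 12796 at 25C and 2321.1, 1958 and 1505.1 at 30C and -2.05 ± 0.254 (SE, adjusted p = 0.00386). All 6 of CG7214, CG13315, CG1304, CG9682, CG14500 and Ag5r2 held. Others with large fold changes did not hold. CG15422 gave 180.2, 414.6 and 1167.6 at 25C and 82.4, 64.2 and 45.7 at 30C, so that array 1 lay close to the 30C values, and -2.56 ± 0.624 (SE, adjusted p = 0.0431). CG11912 (-2.54, adjusted p = 0.0408), CG13557 (-2.42, adjusted p = 0.0459), CG7720 (-2.39, adjusted p = 0.0449) and CG5550 (-2.36, adjusted p = 0.0282) each missed against at least 1 of the 25C arrays. The call of CG15422 ended without any single S284Y 30C array, S284Y 25C array 2 or 3 or any single WT array, that of CG11912 without S284Y 30C array 2 or 3, S284Y 25C array 3 or any single WT array, that of CG13557 without any single S284Y 30C array, S284Y 25C array 3, any single WT 25C array or WT 30C array 2 or 3, that of CG7720 without any single S284Y 30C array, S284Y 25C array 2, WT 25C array 1 or 3 or any single WT 30C array, and that of CG5550 without S284Y 30C array 2 or 3 (adjusted p = 0.0533 to 0.155).

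Further genes that held and were lower belong to no list. Nplp3, a neuropeptide-like precursor, had signals of 6135, 2932 and 5519.6 at 25C and 2241.1, 1839.3 and 1279.2 at 30C and a fold change of -1.40 ± 0.268 (SE, adjusted p = 0.0242). CG9568 gave 979, 1027.8 and 2416.1 at 25C and 370.1, 464.4 and 271 at 30C and -1.86 ± 0.314 (SE, adjusted p = 0.0157). In both the 30C values lay below all 25C values. TP53INP (-0.88, adjusted p = 0.0176), Had1 (-1.27, adjusted p = 0.0243), CG4783 (-1.71, adjusted p = 0.0248) and CG7542 (-1.47, adjusted p = 0.0434) held as well. In all, 88 probe sets with 1 gene name held, 26 higher and 62 lower, of which 29 lay in a list (4 higher and 25 lower) and 59 did not. A further 11 that held, 3 higher and 8 lower, carry several gene names or none.

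**Figure D2:**
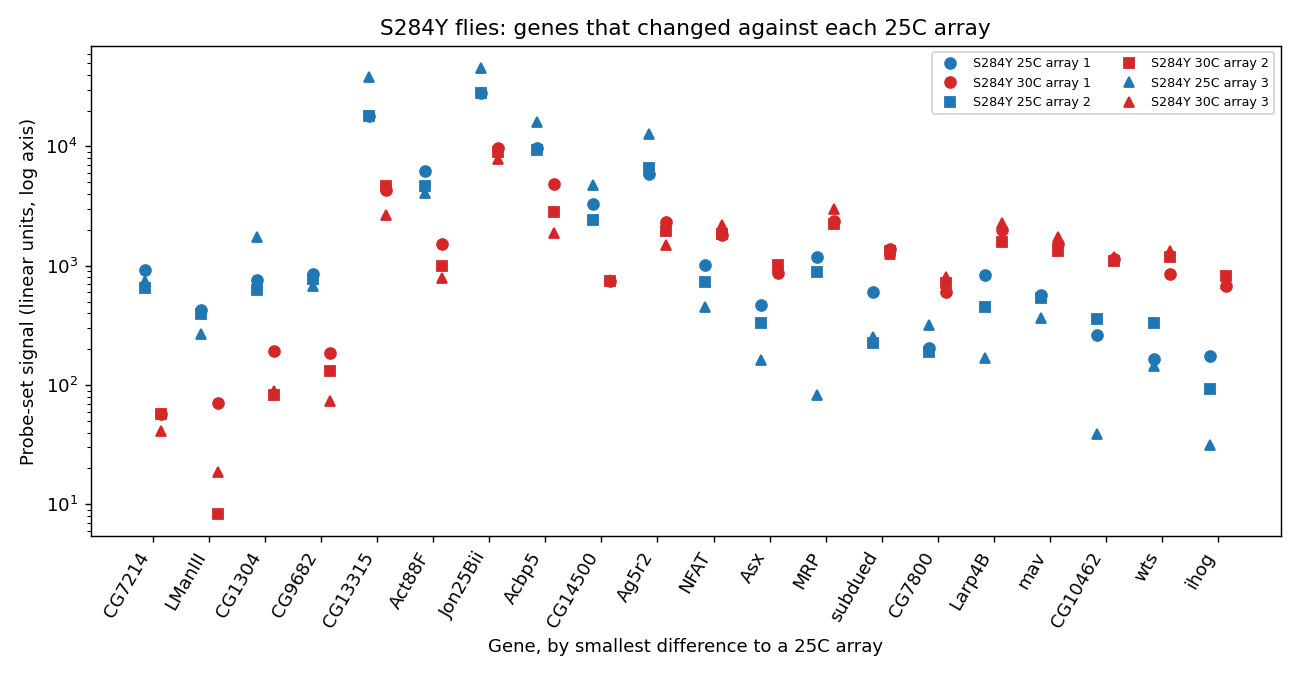
Signal on a log axis (vertical) of the 10 lower and 10 higher named genes that differed most from their nearest 25C array (horizontal axis), with each 25C array in blue and each 30C array in red. Only genes without overlap between temperatures were eligible. Array 3 at 25C (blue triangles) is lowest for 8 of the 10 higher genes and highest for 6 of the 10 lower ones.

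The genes that rose and held include wts, ihog and mav. wts, the Warts kinase of the Hippo growth-control pathway, had signals of 166.8, 329.3 and 145.6 at 25C and 858.1, 1179.8 and 1325.1 at 30C. Its 30C values were all over 2 times the highest 25C value. The fold change was 2.37 ± 0.309 (SE, adjusted p = 0.00534), with differences of 2.61, 1.70 and 2.79. ihog, a Hedgehog co-receptor at the cell surface, gave 174.4, 93 and 31.7 at 25C and 673.5, 813.9 and 702.9 at 30C and a fold change of 2.90 ± 0.454 (SE, adjusted p = 0.0104). The 25C arrays of ihog spanned 31.7 to 174.4, so the difference depended on the array: 1.97, 2.77 and 3.96. mav, the TGF-beta family ligand Maverick, gave 570.5, 538.2 and 364.4 at 25C and 1526.5, 1327.8 and 1734.8 at 30C and 1.63 ± 0.237 (SE, adjusted p = 0.00789). All 3 held. The call of ihog ended without S284Y 30C array 2 or 3, and that of mav without S284Y 30C array 3 (adjusted p = 0.0543 to 0.0629).

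Further genes that held and were higher belong to no list. sax, a type I receptor for bone morphogenetic proteins, gave 1482.6, 1036.2 and 871.9 at 25C and 2225.8, 2396.1 and 2542.9 at 30C and 1.10 ± 0.191 (SE, adjusted p = 0.0162). rut, the calcium-responsive adenylyl cyclase studied in fly memory, gave 363.9, 593.2 and 265.5 at 25C and 1304.9, 1028 and 1009.4 at 30C and 1.48 ± 0.268 (SE, adjusted p = 0.0199), but a brighter probe set of rut gave 0.19 and did not pass. subdued, a membrane protein of the anoctamin family, had signals of 607.6, 227.3 and 252.8 at 25C and 1377.3, 1321.4 and 1250.4 at 30C and a fold change of 1.95 ± 0.316 (SE, adjusted p = 0.013). MRP, an ABC transporter, gave 1195, 886.8 and 81.8 at 25C and 2391.7, 2233.3 and 2968.7 at 30C. Its value on 25C array 3 was far below the other 2, and the joint test gave 2.41 ± 0.661 (SE, adjusted p = 0.0582) although each single test passed. NFAT, a transcription factor of the NFAT family, gave 1013.1, 726.2 and 451.6 at 25C and 1794.4, 1830.4 and 2194.8 at 30C and 1.46 ± 0.254 (SE, adjusted p = 0.0167). The call of subdued and NFAT ended without S284Y 30C array 2 or 3 (adjusted p = 0.0595 to 0.091).

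Several germline genes rose. Of 34 ovary and germline genes, 9 rose and none fell, against 2.03% and 2.44% of all genes, and 3 held. A positive fold change was seen in 30 of 34, with a median of 0.76 against -0.05 over all genes. The list's median was 0.25 against array 1, 0.50 against array 2 and 1.34 against array 3. osk, which organises the germ plasm of the oocyte, had signals of 9635.1, 7488.6 and 3866.1 at 25C and 14214, 15443 and 15026 at 30C. The 30C arrays lay close together and above all 25C arrays, and the fold change was 1.19 ± 0.258 (SE, adjusted p = 0.0315). aub, a Piwi-family protein of the piRNA pathway, gave 1443.2, 1071.7 and 724.7 at 25C and 2212.3, 2406.1 and 2645.9 at 30C and 1.20 ± 0.214 (SE, adjusted p = 0.0182). krimp, a Tudor-domain protein of the same pathway, gave 1343.6, 674 and 220 at 25C and 2172.8, 2688.9 and 2450.5 at 30C and 2.01 ± 0.443 (SE, adjusted p = 0.0323).

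ovo, a transcription factor of the female germline, gave 1571.8, 830.1 and 1448.4 at 25C and 2299.7, 2781.3 and 2540.6 at 30C and 1.02 ± 0.224 (SE, adjusted p = 0.0319), without holding, and its other probe set gave -0.07. bcd, the anterior determinant, rose by 1.12 (adjusted p = 0.0396), orb, an RNA-binding protein of the oocyte, by 0.86 (0.0425), and vas, the germline helicase, by 0.72 (0.0404). twe, the meiotic Cdc25 phosphatase, rose by 1.36 (0.0461) and mtrm, an inhibitor of Polo kinase, by 0.64 (0.0428). The summed signal of the 34 genes was 118980, 105180 and 76073 at 25C and 138850 to 157500 at 30C, with 106430 to 113780 and 118410 to 123900 in WT flies. Of 3 yolk and 16 eggshell genes, also of females, none was called higher, where 2.03% of all genes were. In so few genes that is no departure from the share. The call of osk, krimp and ovo ended without any single S284Y 30C array or any single WT array, and that of aub without S284Y 30C array 2 or 3 (adjusted p = 0.0514 to 0.122).

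All 31 cell cycle and replication genes had a positive fold change, with a median of 0.74, and 28 were positive against array 1 alone. Of the 31, 2 rose and none fell, against 2.03% and 2.44% of all genes, and none held. These were Cdc6, a replication licensing factor (0.74, adjusted p = 0.0376), and CycD, cyclin D (0.90, adjusted p = 0.0419). The median was 0.33, 0.39 and 1.42 against arrays 1, 2 and 3. Of 22 genes of DNA damage and apoptosis none passed, with a median of 0.51. Outside these lists, 4 genes that held are given here, chosen after their values were seen. Nap1, a histone chaperone, gave 9364, 9325.4 and 9003.1 at 25C and 14042, 14035 and 15558 at 30C and 0.65 ± 0.138 (SE, adjusted p = 0.0293). dgt6, a subunit of the augmin complex that seeds spindle microtubules, gave 1.07 (adjusted p = 0.0248). Grip84, of the gamma-tubulin complex, passed each single test with a joint value of 1.83 (adjusted p = 0.0766). PolH, the translesion polymerase eta, gave 1.08 (adjusted p = 0.0269).

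Of the next genes that held and were higher, heph, flfl, hrg and CG7386 were chosen after their values were seen. heph, the fly polypyrimidine tract-binding protein, had signals of 1147.7, 969.2 and 480.9 at 25C and 1951.4, 1943 and 2248.5 at 30C. It held, with a fold change of 1.31 ± 0.266 (SE, adjusted p = 0.0269), and a second probe set gave -0.07 and did not pass. Larp4B, a La-related RNA-binding protein, gave 841, 454.9 and 167.3 at 25C and 2004.6, 1592.8 and 2294.6 at 30C and 2.22 ± 0.406 (SE, adjusted p = 0.0207). Asx, the Additional sex combs chromatin protein of the Polycomb group, gave 472, 333.1 and 162.7 at 25C and 874.1, 1012.8 and 982.5 at 30C and 1.64 ± 0.312 (SE, adjusted p = 0.0242). flfl, a regulatory subunit of protein phosphatase 4, held at 1.31 (adjusted p = 0.0207), and hrg, a poly(A) polymerase, at 1.48 (adjusted p = 0.0301). CG7386 held and was dim at 25C, with signals of 33.5, 39.3 and 55 at 25C and 256.1, 255.4 and 278 at 30C and a fold change of 2.27 ± 0.344 (SE, adjusted p = 0.00981). CG10462 gave 263.1, 358.8 and 38.7 at 25C and 1135.1, 1094.3 and 1186.3 at 30C and 2.69 ± 0.541 (SE, adjusted p = 0.0268). CG7800 gave 203.7, 187.9 and 318.7 at 25C and 598, 720.7 and 801 at 30C and 1.54 ± 0.309 (SE, adjusted p = 0.0268). The call of Larp4B and Asx ended without any single S284Y 30C array, and that of CG10462 and CG7800 without any single S284Y 30C array or WT 30C array 2 (adjusted p = 0.0503 to 0.121).

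Several of the largest rises did not hold, each missing the threshold against array 1 alone. Cul6, of the cullin family, had signals of 179.6, 31.4 and 60.8 at 25C and 659.1, 448 and 699.2 at 30C and a fold change of 2.77 ± 0.469 (SE, adjusted p = 0.0157), with an adjusted p of 0.0796 against array 1 alone. mask, an ankyrin-repeat and KH-domain protein, gave 88.1, 101.8 and 26 at 25C and 333.2, 578.3 and 663.1 at 30C and 2.70 ± 0.478 (SE, adjusted p = 0.0176). Other probe sets of mask gave 1.85, 1.15 and -0.32, none past the threshold. zld, the zygotic genome activator Zelda, gave 154.2, 143.3 and 98.3 at 25C and 696.8, 481.4 and 986.1 at 30C and 2.28 ± 0.45 (SE, adjusted p = 0.0256). rno, a PHD-finger protein, gave 847, 257 and 57.1 at 25C and 1457.2, 1305.7 and 2174 at 30C, spread over an order of magnitude at 25C, and 2.65 ± 0.621 (SE, adjusted p = 0.0396). pad, CG4496, CG11247, Bicra and CalpC had fold changes of 2.46, 2.49, 2.46, 2.36 and 2.29, and adjusted p-values of 0.0386, 0.0162, 0.0467, 0.0304 and 0.0489. Against array 1 alone the smallest of these 9 adjusted p-values was 0.0715, for mask. The call of Cul6, mask and CG4496 ended without S284Y 30C array 2 or 3, that of zld without any single S284Y 30C array, that of rno and CalpC without any single S284Y 30C array, S284Y 25C array 2 or any single WT array, that of pad and CG11247 without any single S284Y 30C array or any single WT array, and that of Bicra without any single S284Y 30C array, WT 25C array 2 or 3 or any single WT 30C array (adjusted p = 0.0511 to 0.161).

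Inducible heat-shock genes, which heat raises through the factor Hsf, did not pass the test in any of 5 cases, where 4.47% of all genes passed. With so few genes, the lack of a call is no departure from that share. The list held only DnaJ-1, Hsp26, Hsp27, Hsp68 and stv, so it does not cover all inducible heat-shock genes. DnaJ-1, an Hsp40 co-chaperone, had signals of 4477.3, 5348.3 and 4742.5 at 25C and 5972.2, 5639 and 7421.4 at 30C. Its groups did not overlap, and the fold change was 0.38 ± 0.16 (SE, adjusted p = 0.163). Hsp26, a small heat-shock protein, gave 22584, 26509 and 27913 at 25C and 17373, 18393 and 26815 at 30C and -0.32 ± 0.219 (SE, adjusted p = 0.372), with overlap. Hsp27 gave 0.21 ± 0.159 (SE, adjusted p = 0.423), Hsp68, of the Hsp70 family, -0.36 ± 0.502 (SE, adjusted p = 0.682), and stv, a co-chaperone, 0.11 ± 0.276 (SE, adjusted p = 0.835). Among 25 constitutive chaperones and the factor Hsf, 1 rose, Hsf itself, at 0.71 (adjusted p = 0.0428), and it did not hold.

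The share of splicing genes that passed is to be read against the 4.47% of all genes. Of 24 early spliceosome genes, 1 rose, Sf3a1 of the U2 particle (0.95, adjusted p = 0.0384), and none held, with a median of 0.12. Of 18 SR and hnRNP genes, heph and glo rose, glo, an hnRNP F/H homologue, at 1.06 (adjusted p = 0.0435), and the median was 0.26. No gene of 21 for mRNA export and decay passed, with a median of 0.33. Ribosomal proteins (34 measured, median -0.44) and proteasome subunits (40, median -0.07) had no gene past the threshold. With quantile normalization the medians of ribosomal and proteasome genes were 0.0024 and 0.036. Of 12 circadian genes, tim, timeless, rose (1.08, adjusted p = 0.0408) and cry, the blue-light cryptochrome, fell (-1.02, adjusted p = 0.0298), and neither held. Between the titled WT temperatures tim also passed, at 1.82 (adjusted p = 0.0282), and cry did not, at -0.33. Of 18 genes linked to cold and temperature, the metallothioneins MtnB and MtnC fell, by 1.28 (adjusted p = 0.0326) and 2.04 (0.0271), without holding. MtnB passed in WT too, at -1.93 (adjusted p = 0.0282), and MtnC did not, at -0.74. Among 31 testis genes only twe rose, and of 16 photoreceptor genes inaE, a diacylglycerol lipase, did (1.32, adjusted p = 0.0249).

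**Figure D3:**
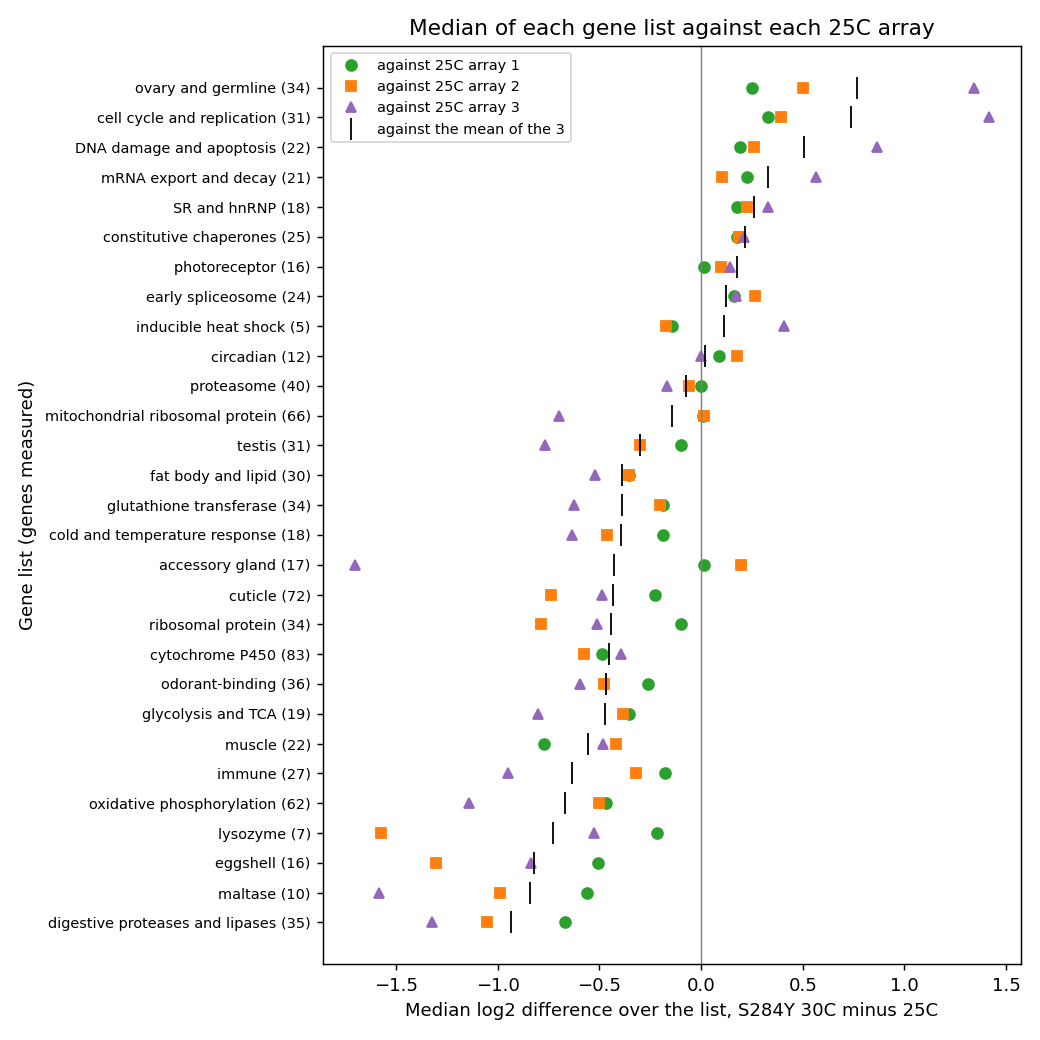
Median log2 difference (horizontal axis, S284Y 30C minus 25C) of each list of at least 5 genes (vertical axis, with its size), against each 25C array (symbols) and against the mean of the 3 (bar). All 3 symbols lie below 0 for 17 of the 29 lists, muscle and digestive genes among them, and above 0 for 9, ovary and cell cycle genes among them. Accessory gland genes go from -1.70 against array 3 to 0.20 against array 2.

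WT flies give the same contrast for comparison, with the doubt on their temperature labels. In WT flies 13 probe sets (0.0931%) passed between the titled temperatures, 4 higher (0.0286%) and 9 lower (0.0644%), and none did in limma once WT 30C array 1 was put with the 25C group, where 372 had an unadjusted p under 0.05. Of the 99 probe sets that held in S284Y, 92 had the same sign in WT, 27 of 29 higher and 65 of 70 lower, as did 64.1% of all probe sets. Of the 99, 5 also passed in WT, among them CG7214, Act88F, Jhbp3 and CG4570. CG7214 in WT had signals of 1295.6, 1644.5 and 2518.1 at 25C and 54.2, 84.6 and 49.4 at 30C. Its WT fold change was -4.51 (adjusted p = 0.000138), and the difference between genotypes was 0.97 ± 0.494 (SE, adjusted p = 0.622). Act88F gave -1.72 (adjusted p = 0.0284) in WT, Jhbp3, of the juvenile hormone binding family, -1.31 (adjusted p = 0.00704), and CG4570, the only one of them that rose, 1.27 (adjusted p = 0.0205).

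Other genes that held did not pass in WT. ihog gave 0.06 (adjusted p = 0.998) and wts 0.03 (adjusted p = 0.998), mav 0.13 (adjusted p = 0.974) and MRP 0.01 (adjusted p = 0.999). For rut, hrg and CG7386, as for wts and mav, S284Y at 25C lay below all WT values and S284Y at 30C overlapped them. MRP in S284Y stayed below all WT values at 30C, while ihog and Larp4B rose above them. Jon99Fi gave 0.17 (adjusted p = 0.966) and Jon44E 0.16 (adjusted p = 0.973), while fln gave -1.29 (adjusted p = 0.335) and Mlc1 -1.07 (adjusted p = 0.21). List medians in WT were -0.59 for muscle, -0.19 for digestive proteases and lipases, -0.21 for oxidative phosphorylation and 0.10 for ovary genes, where S284Y gave -0.55, -0.93, -0.67 and 0.76. No probe set passed the test of the difference between genotypes: the interaction of genotype and temperature in limma called 0 of 13966 probe sets (0%), 1127 (8.07%) had an unadjusted p under 0.05, and the smallest adjusted p was 0.147, for Gnmt. For Gnmt the interaction was -2.27 ± 0.364 (SE, adjusted p = 0.147), with -1.41 in S284Y and 0.86 in WT. For wts it was 2.34 ± 0.436 (SE, adjusted p = 0.263) and for Jon99Fi -1.84 ± 0.361 (SE, adjusted p = 0.298). Without S284Y 25C array 1 the interaction called 84 probe sets, and with array 2 or array 3 as the only S284Y 25C array 1000 and 3732.

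**Figure D4:**
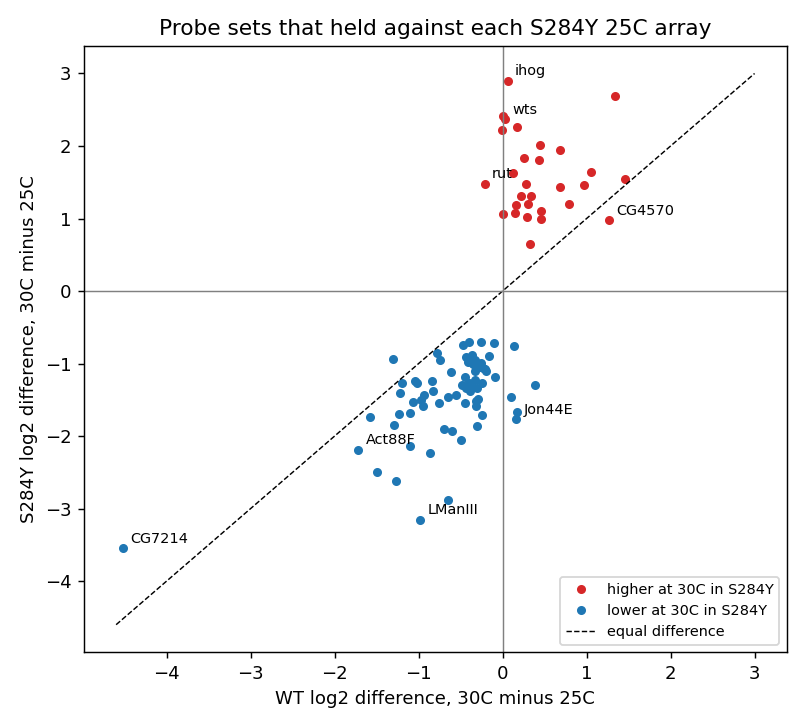
Log2 difference between 30C and 25C in S284Y flies (vertical axis) and in WT flies (horizontal axis) of the 99 probe sets that held, higher in red and lower in blue, with a dashed line of equal difference. Act88F and CG7214 are far from 0 in both genotypes, and ihog and wts are near 0 in WT.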

How the data were processed

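Each deposited value is an intensity on a linear scale, the signal of 1 probe set on 1 array of a 1-colour type. How the authors computed it from the scans is not given in the sources at hand. From the values, the arrays had been scaled: the 2% trimmed means of the 12 lay between 1000.12 and 1000.18, within a tolerance of 10%, so no normalization was added. Medians ran from 401.25 to 546.45. Detection calls were not used here, and the number of arrays limits the precision. The table holds 14010 probe sets including 44 controls, which were dropped. Of the 13966 tested, 12442 had 1 gene symbol, 327 several and 1197 none, and 12393 of the 12442 matched a current gene name, while 49 kept the array's symbol.

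log2(signal + 16), computed from the deposited intensities, was tested in R 4.3.3 with limma 3.58.1 (a mean for each of 4 groups, eBayes with trend, prior degrees of freedom 4.83) and Benjamini-Hochberg adjustment at 0.05. The 16 damps differences of dim probe sets. A change held if it passed with 1 sign in 3 fits, each with 1 S284Y 25C array as the 25C group. A gene was represented in lists by its brightest probe set, which left 10843 genes.

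The gene lists and the genes in them were chosen with earlier results of these data known, so their counts are not independent of that choice. Lists are described by counts and medians only. Acp65Aa was taken out of the accessory gland list, as a cuticle protein, after its values were seen. Named by rule were the 12 highest and 12 lowest fold changes that passed, had 1 name, no overlap and a mean log2 of the brighter group of at least 8.30 (the 40th percentile). Under the same conditions, the rule added the 10 higher and 10 lower that held with the largest smallest difference. Lack of overlap between temperatures was thus a condition for these genes and not a result. Also named were up to 4 members of each list with 3 or more calls, the inducible heat-shock genes, U2af50 and U2af38. Other genes were named after their values were seen: remaining members of the lists that passed or held, and examples of those that held. Same-numbered S284Y arrays did not deviate together (r = -0.045, -0.053 and -0.131), and differently numbered ones gave -0.039 to 0.087. Deviations from means of 3 arrays cannot show whether arrays of 1 number were processed together. Alternatives were other added values, quantile normalization, median centring, leaving out dim probe sets, the 6 S284Y arrays alone, no trend, a replicate block, moving WT 30C array 1 and leaving out each array. No sequence was used here.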

Additional observations from a re-analysis of the deposited data

How the results depend on the processing

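The 559 changed probe sets were 541 and 598 with 1 and 64 added in place of 16, 582 with quantile normalization, 560 with median centring (57.3% higher, against 45.4%) and 837 with the dimmest 40% left out. They were 128 without the trend in eBayes, 222 with WT 30C array 1 moved to WT 25C, 0 in the fit of the 6 S284Y arrays, and 183, 3228 and 4759 against 25C array 1, 2 and 3 alone. Leaving out 1 array gave 17 to 2398. Whether arrays of 1 number belong together is not known, and with the replicate block, which treats them so, 164 passed. The 99 that held were 161 without the dimmest 40%, 0 with 6 arrays, 22 without trend, 35 with the replicate block, 20 with WT 30C array 1 moved, 293 by position and size (no overlap and at least 1 log2 unit from each 25C array) in place of a test, and 56 to 154 with 1 array left out. The interaction called 0 to 84 with 1 array left out (84 without S284Y 25C array 1 and 0 otherwise), and 1000 and 3732 probe sets against 25C arrays 2 and 3 alone. In WT, 13 became 0 with array 1 moved. Over the named genes, 1509 values kept direction and side of the threshold, 555 lost the threshold, 9 gained it and 5 turned sign: Hsp26 (0.0207 with quantile normalization), U2af50 (-0.0783 to 0.288 with 1 array left out, lowest without S284Y 25C array 2, and -0.27 against array 3 alone), Hsp27 (-0.0589 against array 1 alone) and U2af38 (0.24 against array 2 alone). None of these 4 genes had passed. List medians of inducible heat-shock, yolk, accessory gland, ribosomal, mitochondrial ribosomal and proteasome genes changed sign in at least 1 setting. Fewer arrays or genes in a fit change its adjustment by construction, and further causes were not tested. Signal over background limits LManIII, CG7214, CG7386 and Obp99d, whose dim group lies near the added 16. It also touches genes with a single 25C array that dim, among them ihog (31.7 on array 3), CG10462 (38.7 on array 3), mask and Cul6.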
